A study of Homo sapiens with 6 samples.

Results

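The E2F transcription factors and their dimerisation partners were examined in the lists of genomic regions bound by N-Myc or JMJD6 in neuroblastoma cells. All 10 genes of the family were taken by name, E2F1 to E2F8 with the partner genes TFDP1 and TFDP2, out of 20136 annotated coding genes. The rule is the gene name alone, although the family was picked with earlier results of these data known. Chromatin immunoprecipitation and sequencing (ChIP-Seq) had been carried out in CHP-134, an established human neuroblastoma cell line whose MYCN gene, encoding N-Myc, is amplified. The 6 samples formed 2 groups of 3 replicates, precipitated with the N-Myc antibody sc-53993 or the JMJD6 antibody ab64575, and all came from the same line, which the labels describe as overexpressing N-Myc. N-Myc chromatin was cross-linked with formaldehyde alone and JMJD6 chromatin with disuccinimidyl glutarate before formaldehyde, so the protein and the cross-linking protocol cannot be told apart in any contrast between the lists. The comparison addresses whether N-Myc and JMJD6, a jumonji family protein described as a histone arginine demethylase, occupy the genes of the E2F family.

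E2F proteins bind promoters of genes needed for DNA replication and cell division. E2F1, E2F2 and E2F3 are classed as activators, E2F4 and E2F5 mostly repress together with the pocket proteins p107 and p130, E2F6 represses without pocket proteins as a subunit of a Polycomb complex, and E2F7 and E2F8 are atypical repressors that bind DNA without a partner. TFDP1 and TFDP2 encode DP1 and DP2, with which the typical E2F proteins dimerise. Myc proteins bind DNA with MAX, preferentially at the palindrome CACGTG, which is the canonical form of the E-box CANNTG, and activator E2F genes are known Myc targets.

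A gene was counted as bound when its symbol stood in a deposited list. The lists gave the coordinates of common peaks, meaning those called in each of the 3 replicates, and the coordinates of promoters, typical enhancers or super-enhancers given as bound. A common peak overlapped a listed promoter for 4047 of the 4150 gene symbols in the N-Myc promoter list, the 5 E2F genes among them. They held no peak height, read count or value per replicate, so the depth behind each peak is unknown, no spread between replicates could be computed, and no difference below was tested. A promoter was 1 kb on each side of a RefSeq start site, and a typical or super-enhancer was a stitched region of histone H3 lysine 27 acetylation named for its nearest genes. Distances are in the direction of transcription from the first annotated start site of each gene, and coordinates are 1-based on GRCh37. A peak width reflects peak calling as well as binding and is given as a description.

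The canonical E-box and the E2F site (TTTCCCGC or TTTGGCGC, searched on both strands) were located within 1 kb of each member's first start site and in its peaks. The following 30-base stretches of the gene strand show, in capitals, canonical E-boxes of E2F1, E2F8 and E2F7 that lay in a common N-Myc peak, because the preferred Myc motif and a peak coincided there. Not every such site is shown.
E2F1, 658 bases downstream, chr20:32273519-32273548: ataataatagccCACGTGtattcaactggc
E2F8, 950 bases downstream, chr11:19262203-19262232: gctgagcctgtgCACGTGtgtgtaagggga
E2F7, 15536 bases downstream, chr12:77443799-77443828: aatccgtgtgtgCACGTGcatgagtgtatg
The E2F1 and E2F8 sites belong to listed promoters, and the E2F7 site lies in an intron of the gene.

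Canonical E-boxes also stood near start sites without a common N-Myc peak over them. They are shown, again with the motif in capitals, for contrast with the sites above.
E2F1, 368 bases upstream, chr20:32274545-32274574: caggttgagggtCACGTGcagaagagaggc
E2F6, 112 bases downstream, chr2:11606177-11606206: ggagctcccgggCACGTGaggccgtgccgc
E2F6, 537 bases downstream, chr2:11605752-11605781: ggcgctgcccatCACGTGctgcgaactgcg
TFDP1, 513 bases upstream, chr13:114238509-114238538: tccccgctccctCACGTGcacatgcactag
TFDP1, 471 bases upstream, chr13:114238551-114238580: tccctgctccccCACGTGcacacacactct
TFDP1, 429 bases upstream, chr13:114238593-114238622: gccccgctccccCACGTGcacacaccagct
TFDP1 thus had the most canonical E-boxes of the 10 start sites, 3 within 1 kb, and no N-Myc promoter listed. These 3 sites lay close together with similar flanking bases, so they are not independent of one another. At least 2 canonical E-boxes stood within 1 kb at 3 of the 10 members, against 6.41% of all coding genes. A missing peak says only that no peak was common to all 3 replicates at the threshold used.

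Sites for E2F proteins themselves were found at 5 of the 10 start sites, those of E2F1, E2F2, E2F3, E2F7 and E2F8. The sites closest to the start of the 3 activator genes and the more distant E2F2 site are shown with the motif in capitals, which is printed as its reverse complement for E2F3 and for the distant E2F2 site.
E2F1, 16 bases upstream, chr20:32274193-32274222: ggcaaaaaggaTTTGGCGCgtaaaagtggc
E2F2, 38 bases upstream, chr1:23857749-23857778: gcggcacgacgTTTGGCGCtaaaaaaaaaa
E2F2, 359 bases upstream, chr1:23858070-23858099: gctgggaccccGCGCCAAAatgtttccctt
E2F3, 50 bases upstream, chr6:20402046-20402075: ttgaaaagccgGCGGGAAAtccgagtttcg
Only the 2 E2F2 sites lay inside a common N-Myc peak. The E2F1 and E2F3 sites, and those of E2F7 (586 bp downstream) and E2F8 (306 and 477 bp downstream), lay outside every common peak.

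N-Myc promoters were listed for 5 of the 10 genes, namely E2F1, E2F2, E2F3, E2F5 and E2F8. Among all coding genes the share was 17.5% (3526 of 20136, exact binomial 95% CI 17.0 to 18.0%, counting error only). All 3 activators were therefore listed, together with 1 of the 2 pocket protein-dependent repressors and 1 of the 2 atypical repressors, while E2F4, E2F6, E2F7, TFDP1 and TFDP2 were not. E2F4 and both DP genes had no row in any of the 9 lists. E2F8 had 3 promoter rows and E2F3 had 2, each for a different start site, and the other listed members had 1.

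**Figure D1:**
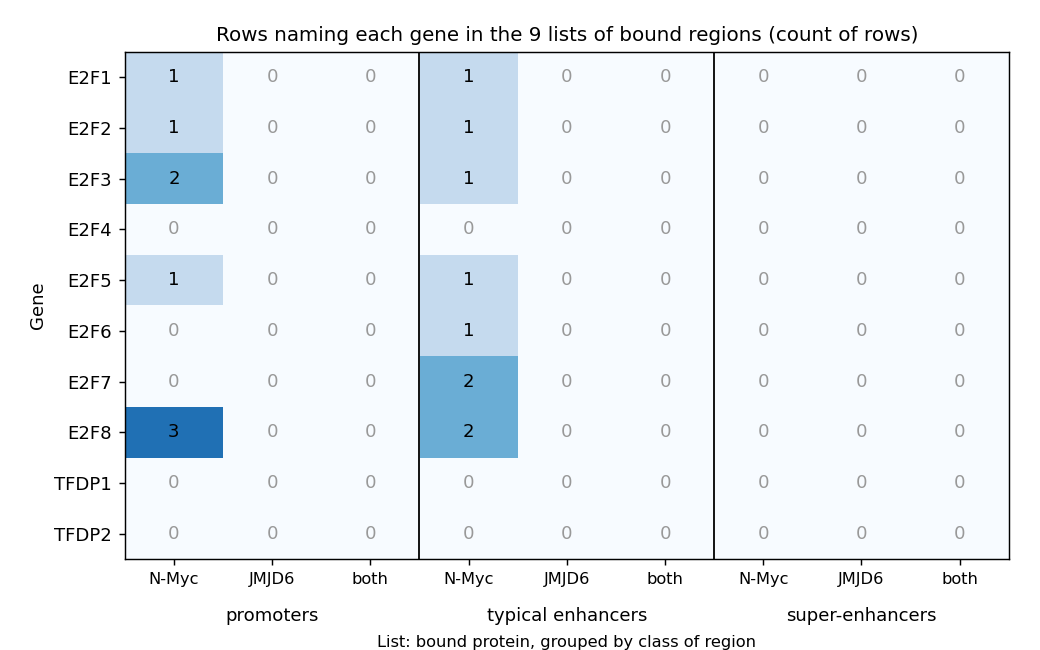
Number of rows naming each of the 10 genes (vertical axis) in the 9 lists (horizontal axis, by class of region and by bound protein), with darker cells for more rows. Rows occur only in the N-Myc promoter column (5 genes) and the N-Myc typical enhancer column (7 genes).

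JMJD6 was not listed at any member. The count was 0 of 10 for JMJD6 promoters, against 0.626% of coding genes (126), for promoters bound by both proteins, against 0.298% (60), for JMJD6 typical enhancers, against 0.909% (183), and for typical enhancers bound by both, against 0.621% (125). With such low shares over all genes, a count of 0 of 10 is close to the background. Super-enhancers named no member either, at background shares of 1.31% for N-Myc (264 genes), 0.0745% for JMJD6 (15 genes) and 0.0546% for both (11 genes). The nearest common JMJD6 peak lay between 614.402 kb (E2F4) and 16153.3 kb (TFDP1) from the start site, with a median of 2705.24 kb over the 10 genes and 2531.82 kb over all coding genes. No member had a JMJD6 peak within 100 kb, a distance at which 5.4% of coding genes had one. At E2F2, the nearest was 2466.73 kb away.

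By contrast, the nearest common N-Myc peak lay at a median distance of 3.5245 kb from the members' start sites, against a median of 58.775 kb over all coding genes (quartiles 10.46 and 185.116 kb). It lay within 1 kb for 5 members, the same 5 whose promoters were listed, and within 100 kb for 9, whereas 16.5% and 61.6% of coding genes met these limits. TFDP2 was the exception beyond 100 kb, at 130.393 kb.

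**Figure D2:**
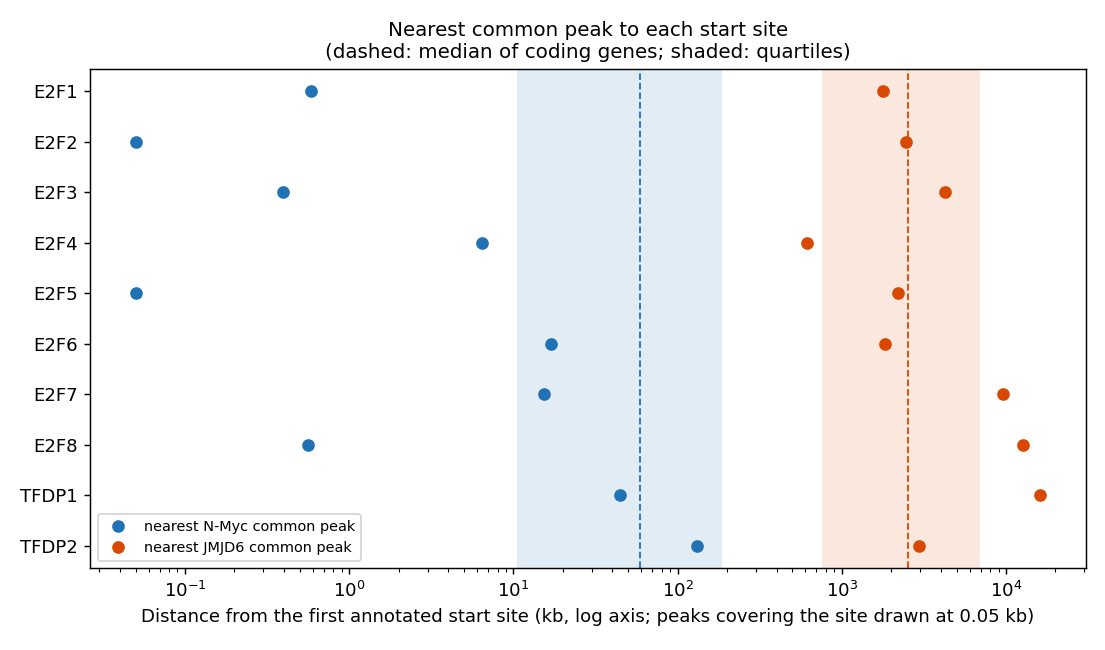
Distance in kb (log axis) from the first annotated start site of each gene to the nearest common N-Myc peak (blue) and JMJD6 peak (orange), with peaks that cover the site (E2F2 and E2F5) drawn at 0.05 kb. Dashed lines and shading give the median and quartiles of all coding genes, and the JMJD6 points lie between 614.402 and 16153.3 kb while 9 of the 10 N-Myc points lie below 100 kb.

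E2F1, the activator best known for driving entry into S phase, carried the widest promoter peak of the family. It measured 988 bp (chr20:32272619-32273606), wider than 95.7% of the 3550 common N-Myc peaks at listed promoters, and lay wholly in an intron, from 585 to 1572 bp downstream of the start site. The canonical E-box at 658 bp was therefore near the upstream edge of the peak, 421 bp from its midpoint. The peak also held 10 sites of the looser form CANNTG, the most of the 7 member promoter peaks. To show the site in its setting, 206 bases of the intron (chr20:32273431-32273636, whose first bases lie just outside the peak) are printed on the gene strand with CANNTG in capitals.
E2F1 intron: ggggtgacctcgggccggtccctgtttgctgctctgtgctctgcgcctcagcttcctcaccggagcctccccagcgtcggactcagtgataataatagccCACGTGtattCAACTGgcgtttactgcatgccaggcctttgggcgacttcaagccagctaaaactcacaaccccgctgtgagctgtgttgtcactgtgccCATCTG
The canonical E-box is followed within a few bases by another E-box, and a further E-box closes the stretch.

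E2F2, an activator that Myc proteins are known to induce, had its peak over the start site. The peak spanned 663 bp (chr1:23857664-23858326), from 601 bp upstream to 61 bp downstream, and was wider than 80.2% of promoter peaks. It held no canonical E-box, 3 sites of the form CANNTG and both TTTGGCGC sites printed above. At least 2 TTTGGCGC sites occurred in 0.0845% of the 3550 promoter peaks, the E2F2 peak included, and 2.03% held at least 1. With both forms of the E2F site counted, 0.535% held at least 2 and 6.85% at least 1. The 100 bases upstream of the start site (chr1:23857726-23857825) and 100 bases around the more distant site (chr1:23858026-23858125) show these sites in their setting, with the motif in capitals.
E2F2, proximal: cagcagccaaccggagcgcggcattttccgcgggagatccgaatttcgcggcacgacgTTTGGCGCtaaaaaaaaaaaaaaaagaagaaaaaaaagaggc
E2F2, distal: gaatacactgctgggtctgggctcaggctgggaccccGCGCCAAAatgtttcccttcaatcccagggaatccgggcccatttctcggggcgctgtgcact
The proximal site is followed by a long run of a bases.

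E2F3, also an activator, had 2 listed promoters, each with its own peak. The upstream peak was the narrowest of the 7, at 298 bp (chr6:20401418-20401715), ended 395 bp upstream of the first start site and was wider than 13.8% of promoter peaks. The downstream peak measured 786 bp (chr6:20404404-20405189), was wider than 88.9%, and lay in an intron with its midpoint 886 bp downstream of the second start site (chr6:20403910). Both held 2 sites of the form CANNTG and neither held CACGTG or an E2F site. The upstream peak is printed whole, since it is short and shows a bound promoter region without the canonical motif (CANNTG in capitals).
E2F3, upstream peak: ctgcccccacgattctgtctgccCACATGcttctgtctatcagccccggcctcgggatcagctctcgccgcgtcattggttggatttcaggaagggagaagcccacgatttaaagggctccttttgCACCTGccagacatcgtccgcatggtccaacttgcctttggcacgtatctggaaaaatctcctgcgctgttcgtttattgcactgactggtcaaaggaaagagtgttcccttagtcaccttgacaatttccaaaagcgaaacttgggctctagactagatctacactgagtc

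E2F8, an atypical repressor, was the only repressor gene with a canonical E-box in a promoter peak. Its peak of 596 bp (chr11:19262013-19262608) ran from 559 to 1154 bp downstream of the first start site and covered an internal start site at chr11:19262492. All 3 listed promoters of the gene overlapped this single peak. The E-box at 950 bp lay 93 bp from the peak midpoint, in a stretch annotated as untranslated exon or as intron, depending on the transcript. The peak was wider than 73.0% of promoter peaks.

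E2F5, a repressor that acts with p130, had 2 narrow peaks in its single listed promoter. The peak of 382 bp (chr8:86089080-86089461) covered the start site, and that of 347 bp (chr8:86090041-86090387) lay 652 to 998 bp downstream in an intron. They were wider than 34.8% and 25.7% of promoter peaks, both below the median of 452 bp. The peak over the start site held none of the motifs searched, the only such case among the 7, and the intronic peak held 2 sites of the form CANNTG. Both also overlapped the listed promoter of LOC102723322, so the lists do not separate binding at E2F5 from binding at that gene. Among all 4047 genes with an N-Myc peak at a listed promoter, 9.81% had at least 2 such peaks, as E2F3 and E2F5 did. A peak covered a listed start site, the centre of a listed promoter, for 58.4% of them. By that measure E2F2 and E2F8 had a covered start, and E2F1, E2F3 and E2F5 did not. The listed start of E2F5 (chr8:86089618) differs from its first annotated start and lay between the 2 peaks.

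The remaining members had no listed N-Myc promoter. For E2F4, the pocket protein-dependent repressor abundant in resting cells, the nearest common peak was 247 bp wide (chr16:67219348-67219594) and lay 6.464 kb upstream, inside EXOC3L1. For E2F6, it was 510 bp wide (chr2:11623296-11623805) and lay 16.993 kb upstream, inside GREB1. For E2F7, an atypical repressor like E2F8, a peak of 308 bp (chr12:77443666-77443973) lay within the gene, 15.376 kb downstream of the first start site, with its E-box 6 bp from the peak midpoint and an internal annotated start site 702 bp from that midpoint. No listed region carried this E2F7 peak, and it was singled out after its position was seen. TFDP1 had its nearest peak 44.636 kb upstream (243 bp, chr13:114194158-114194400, inside TMCO3) and TFDP2 had its nearest 130.393 kb upstream (406 bp, chr3:141998779-141999184, in no annotated gene).

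**Figure D3:**
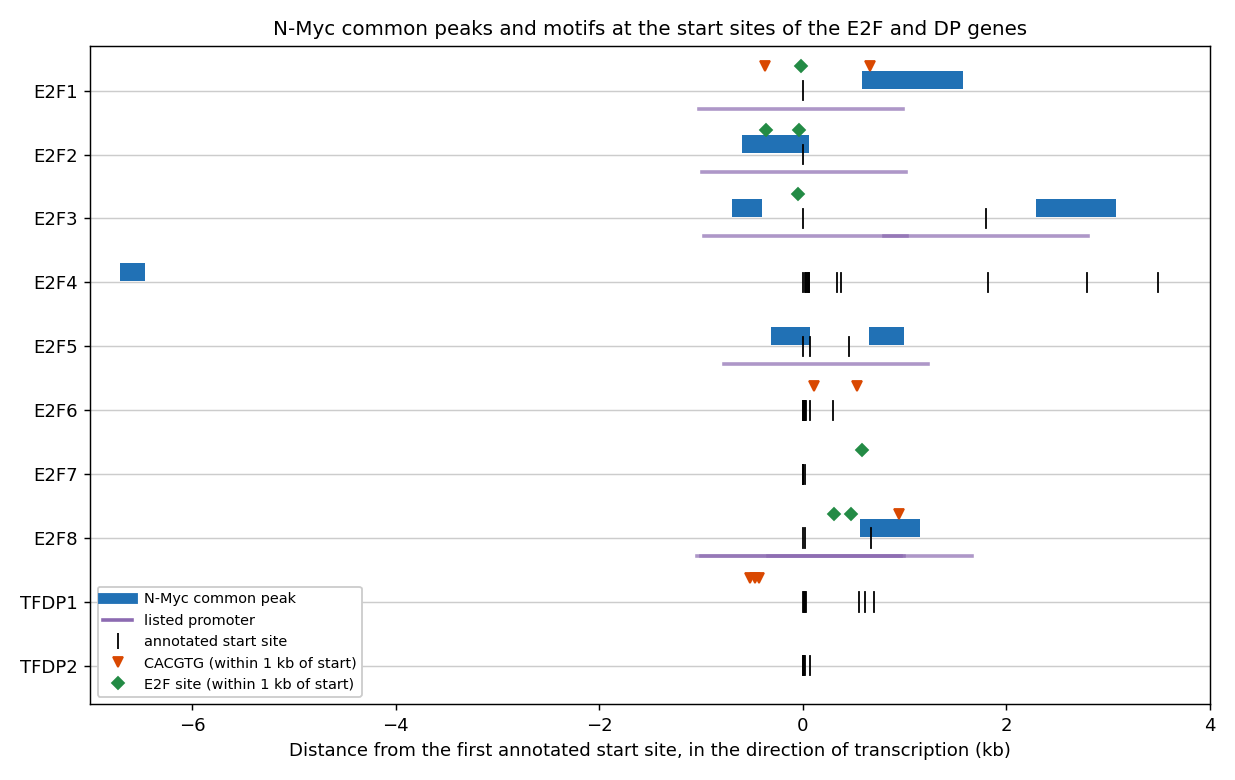
Common N-Myc peaks (blue bars), listed promoters (purple lines), annotated start sites (black ticks), canonical E-boxes (orange triangles) and E2F sites (green diamonds) along each gene, in kb from the first start site with transcription running to the right. Peaks cover the first annotated start only at E2F2 and E2F5, lie downstream of it at E2F1 and E2F8 and flank it at E2F3. The 3 E-boxes of TFDP1 have no peak.

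The 7 promoter peaks had a median width of 596 bp and a range of 298 to 988 bp, against a median of 452 bp (quartiles 343 and 612 bp) over the 3550 peaks at listed promoters. They thus spread across the range of promoter peaks, with 3 below that median and 4 above it.

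**Figure D4:**
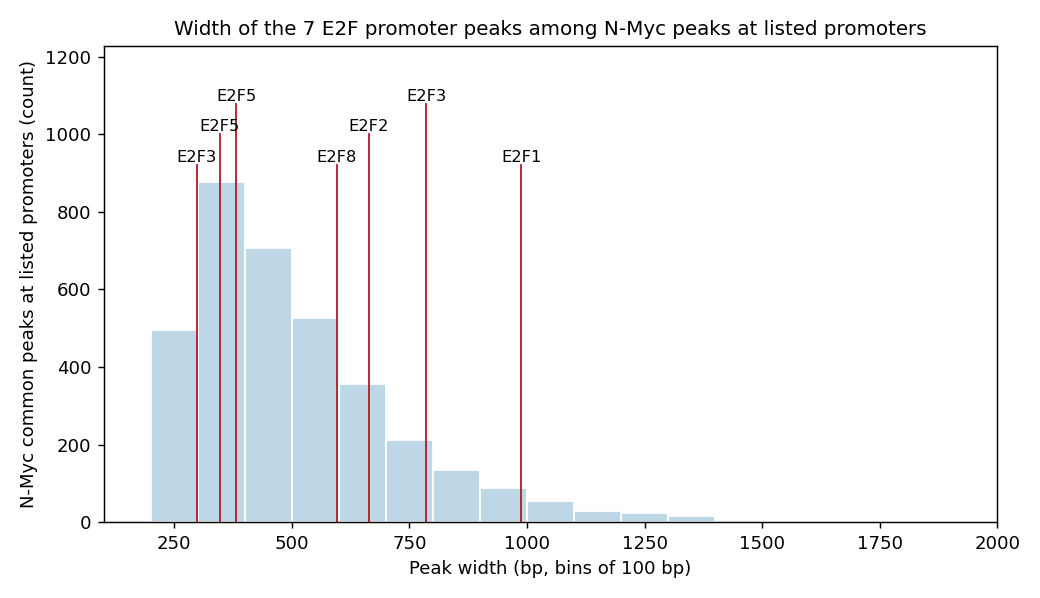
Histogram of the widths in bp of common N-Myc peaks at listed promoters (count per bin, 1 peak beyond the axis), with red lines at the 7 peaks of E2F genes, whose heights carry no value. The E2F1 peak (988 bp) lies in the right tail and the upstream E2F3 peak (298 bp) in the narrowest bin shown for the family.

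Across these 7 peaks, 2 held CACGTG (28.6%, 95% CI 3.67 to 71.0%), against 36.9% of all promoter peaks. In windows of equal width shifted 5 kb to higher coordinates, whatever the strand of the gene, the share was 5.06%. Windows overlapping a common N-Myc peak were left out, and 3518 remained. The looser CANNTG occurred in 6 of the 7 (85.7%), against 87.1% of promoter peaks and 88.1% of shifted windows, so its presence separates neither set. An E2F site occurred in 1 of the 7 (14.3%), against 6.85% of promoter peaks and 0.426% of shifted windows. The intervals of the family are wide because there are 7 peaks from 5 genes. They also treat the peaks as independent, although E2F3 and E2F5 gave 2 each. Around start sites, CACGTG was found within 1 kb at 4 of the 10 members (E2F1, E2F6, E2F8 and TFDP1), against 28.7% of all coding genes and 44.5% of those with a listed N-Myc promoter. It was present at 2 of the 5 listed members and at 2 of the 5 others. E2F sites were present at 4 of the 5 listed members and 1 of the 5 others, against 15.1% of coding genes with a listed N-Myc promoter, 8.89% of those without and 9.98% of all. A match to these letters is a description of the sequence and does not show that a protein binds there.

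N-Myc typical enhancers named 7 of the 10 genes, E2F1, E2F2, E2F3, E2F5, E2F6, E2F7 and E2F8, against 31.9% of coding genes (6414). The rows of E2F1, E2F2, E2F3 and E2F5 overlapped the listed promoter of the gene itself and contained a promoter peak already described, so they repeat the same binding in another list. For E2F3 this was the downstream peak. The E2F1 region stood apart by its length of 39.696 kb (chr20:32251704-32291399), which exceeded that of 99.8% of typical enhancers (median 2.553 kb) and of 116 of the 162 N-Myc super-enhancers (median 28.4415 kb), although it held a single common N-Myc peak. Super-enhancers are ranked by acetylation signal, which was not used here. The E2F2, E2F3 and E2F5 regions measured 6.551, 3.301 and 1.853 kb. The second gene assigned to these 4 regions was NECAB3, ASAP3, CDKAL1 and CA13 respectively, none of which had a listed N-Myc promoter.

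Only E2F6, E2F7 and E2F8 had enhancer rows away from listed promoters. The E2F6 region (1.166 kb, chr2:11623290-11624455) was centred 17.597 kb upstream of E2F6 and was also assigned to GREB1, in which it lay. E2F7 was named for regions 367.723 and 707.74 kb upstream (chr12:77825962-77828205 and chr12:78165865-78168335), both within the annotated span of NAV3 and both assigned to NAV3 too. E2F8 was named for regions 108.404 and 299.732 kb upstream (chr11:19367622-19375520 and chr11:19562803-19562996), both shared with NAV2. NAV2 had a listed N-Myc promoter of its own, and GREB1 and NAV3 had none. However, the common N-Myc peak in the E2F6 region lay 0.829 kb from the first annotated start site of GREB1. The listing placed GREB1 50.37 kb from the centre of the E2F6 region, so listed and annotated starts differ for this gene. Assignment to a gene rested on nearness alone, and which gene such a region acts on was not measured. Each of these 5 regions held 1 N-Myc peak and no JMJD6 peak.

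Taking all 9 lists as a pattern, E2F1, E2F2, E2F3, E2F5 and E2F8 had an N-Myc promoter and an N-Myc typical enhancer. That combination was shared by 2424 coding genes (12%), these members included. The enhancer-only pattern of E2F6 and E2F7 was that of 3671 coding genes (18.2%), and E2F4, TFDP1 and TFDP2 belonged to the 12619 (62.7%) in no list.

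Genes of proteins that work with the E2F factors were counted in the same way, and each share is to be read against the 17.5% of coding genes with a listed N-Myc promoter. The lists are short, and no difference from that share was tested. Of the 3 pocket protein genes, RBL1 (p107) had a listed N-Myc promoter with a peak of 579 bp, whereas RB1 and RBL2 (p130) had none, with nearest peaks at 265.47 and 115.996 kb. RBL2 was named for an N-Myc super-enhancer. In the MuvB core, which joins E2F4, DP and p130 to silence cell cycle genes in resting cells, and its later partner B-MYB, 2 of 6 genes were listed, LIN52 (437 bp) and LIN54 (333 bp), and LIN9, LIN37, RBBP4 and MYBL2 were not. In the E2F6 Polycomb complex 3 of 12 were listed, L3MBTL2 (613 bp), CBX3 (1895 bp) and MAX (334 bp for the wider of 2 peaks), MAX being also the partner of N-Myc. PCGF6, MGA, RING1, RNF2, RYBP, YAF2, EHMT1, EHMT2 and WDR5 were not listed.

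Textbook E2F target genes outside the family were listed as N-Myc promoters in 12 of 28 cases (42.9%), against 17.5% of coding genes. The widest peaks were those of the checkpoint kinase gene CHEK1 (866 bp), the replicative helicase gene MCM4 (638 bp) and the DNA repair gene BRCA1 (633 bp). The BRCA1 peak overlapped a listed promoter, but the first annotated start site of BRCA1 lay 45.176 kb from the nearest common peak. The cyclin gene CCNE2, singled out after its values were seen, was counted among the 12 although no common peak overlapped its listed promoter, and its nearest peak lay 0.108 kb from another annotated start site. Among the genes without a listed N-Myc promoter were the cyclin genes CCNE1 and CCNA2, the replication genes CDT1, PCNA, MCM2, MCM5, MCM6, ORC1 and POLA1, the nucleotide synthesis genes RRM1 and RRM2, the repair gene UNG, and EZH2 and MYBL2. Of these, RRM2 and POLA1 had a common N-Myc peak 15 and 78 bp from the first annotated start site, and the promoter lists held 0 rows on chromosome X, where POLA1 lies. JMJD6 promoters named none of the genes in the 4 lists. The only JMJD6 row among them was a typical enhancer assigned to EZH2, the histone methyltransferase of Polycomb complex PRC2, which was also named for an N-Myc typical enhancer but not for a region bound by both. These lists were chosen with earlier results known, so their shares are descriptions.

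**Figure D5:**
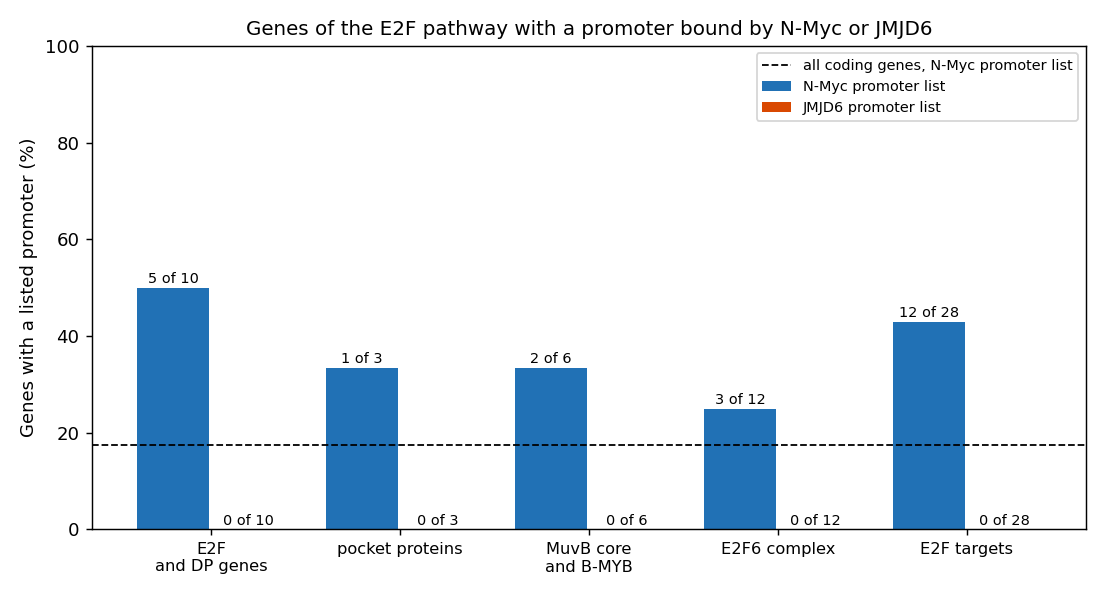
Share of genes (%) with a listed N-Myc promoter (blue bars) or JMJD6 promoter (orange, 0 in every list) for the E2F and DP genes and 4 lists of associated genes, with counts above the bars. The dashed line is the share over all coding genes for N-Myc, 17.5%, and the bars are at 5 of 10, 1 of 3, 2 of 6, 3 of 12 and 12 of 28 genes.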

How the data were processed

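CHP-134 samples were grouped by the antibody in their labels, with 3 replicates for each of N-Myc and JMJD6. The authors aligned reads with BWA, called peaks against input DNA with MACS2 (version 2.1.1.20160309, q-value maximum 0.05) and deposited 12 lists of positions in bp (hg19) with gene names, keeping peaks found in all 3 replicates. Enhancers were stitched within 12.5 kb with ROSE, and genes were assigned with GREAT. The deposited lists contain no score, count or value per sample. Overlap was at least 1 bp. Start sites were those of GENCODE version 44 on GRCh37, and 87.8% of 4724 N-Myc promoter rows (7 of 8 member rows) had an annotated start of their symbol no more than 100 bp from the centre. Of 4150 symbols in the N-Myc promoter list, 3531 matched a coding gene, 110 through a synonym. Sequences were read from the GRCh37 reference. Shares over many regions have exact (Clopper-Pearson) 95% intervals, which cover counting error only. The procedures were tested on simulated data. Members, lists and the rule for named genes (all 10 members, genes sharing their rows, every gene of lists of 12 or fewer, and in the target list the JMJD6 rows, the 3 widest peaks and the unlisted genes) were chosen with earlier results of these data known. Some genes and sites covered by this rule are not reported here. Python 3.11.15, pysam 0.24.0, SciPy 1.17.1, numpy 2.4.6 and matplotlib 3.10.9 were used.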

Additional observations from a re-analysis of the deposited data

How the results depend on the processing

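Of 20 alternatives, 15 left the result within the limit set for it and 5 moved it beyond that limit. The limit was 1.5 times for a count and the exact binomial interval for a share. With annotated start sites in place of listed symbols, 6 members had an N-Myc promoter at 1 kb and at 2 kb on each side, E2F7 being added through an internal start site, and 4 did at 500 bp, without E2F1. Requiring the peak midpoint inside the promoter left 4 (without E2F1), as did peaks at least as wide as the median (without E2F5). JMJD6 promoters stayed at 0. The 7 members with an enhancer row became 5 within 100 kb and 3 where no listed promoter was overlapped. The share of coding genes under these 2 enhancer limits was not computed, so the counts cannot be set against a background. The same holds for the promoter counts at 500 bp and 2 kb, by midpoint and by width. The share of coding genes with an N-Myc promoter, 17.5%, became 18.3% on autosomes and 20.8% with annotated start sites. Promoter peaks with a canonical E-box, 2 of 7, became 1 within 100 bp of the midpoint, since the E2F1 site lies near the edge, and 6 with any CANNTG. The E2F target list had 14 genes with annotated start sites in place of 12, and the E2F6 complex list 4 in place of 3. No replicate could be left out and no stricter q-value applied, since the lists have no column per replicate and no score. No paired analysis was possible because the lists carry no replicate numbers. The depth behind each peak is unknown, so a missing peak does not show that a gene is unbound.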
